A study of Homo sapiens with 8 samples.

Results

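A set of 41 human genes for protein folding, translocation and degradation at the endoplasmic reticulum (ER) was followed in stressed glioblastoma cells. The members are a list of gene symbols drawn up by function, with earlier results of these data known, and 40 of the 41 had a row in the deposited table of 13036 genes. ATF6B was not analysed here. The 40 fall into 4 roles, with 4 sensors and transducers, 14 chaperones and oxidoreductases, 12 genes of translocation and signal peptide removal, and 10 genes of ER-associated degradation. All 40 passed the filter on low values (at least 1 CPM, the read count scaled to library size, in at least 2 libraries). The lowest group mean of any member was 7.21 CPM (ERN1 in regular culture at 7 h).

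The study profiled RNA from LN229-TAZ(4SA) cells in 8 libraries, 2 for each of 4 groups. LN229 is an established human glioblastoma line, and TAZ(4SA) is a mutant of the transcriptional coactivator TAZ in which serines are replaced by alanines, so every library, controls included, comes from cells carrying it. Control cells stayed in regular culture without AF for 1 h or 7 h, in DMEM with serum. Treated cells were kept without glucose and with 1 µM AF for 1 h or 7 h; the labels give the agent only as AF, and the series title names inhibition of thioredoxin reductase 1, an enzyme that keeps cellular thiols reduced. AF and glucose removal were always applied together, so their parts cannot be told apart. Whether the 2 libraries of a group were separate cultures is not stated, so the p-values rest on library-to-library spread alone, and that spread may be technical. In bulk RNA a change in the mix of cell states and a change in RNA per cell also cannot be told apart.

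Proteins of the secretory pathway enter the ER through the SEC61 channel, lose their signal peptide, and are folded by lumenal chaperones while oxidases and disulfide isomerases form their disulfide bonds. Glucose is also a source of the sugar chains added to these proteins. When unfolded proteins build up, transmembrane sensors start the unfolded protein response: IRE1 (gene ERN1) cuts XBP1 mRNA so that it encodes an active transcription factor, ATF6 is cleaved to release another, and PERK (gene EIF2AK3) slows translation. Their targets include the chaperone BiP (gene HSPA5) and the genes of ER-associated degradation, which sends failed proteins back to the cytosol for the proteasome.

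Promoters of this response are known for the ER stress response element. Its first form (ERSE) was searched as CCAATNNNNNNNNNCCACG and its second form (ERSE-II) as ATTGGNCCACG, on both strands, in RefSeq promoter windows (GRCh38.p14) running from 250 bases before to 50 bases after each start. A window was searched for 37 of the 40 members, all but PDIA3, SPCS1 and DERL1. ERSE lay in 27 of 35116 windows of all genes (0.0769%) and in those of 8 members. ERSE-II lay in 19 windows (0.0541%) and in those of 3 members, and no member held both forms. Stretches of these 11 members are shown because the changes at 7 h are set beside them further on. Each is written 5′ to 3′ on the gene's strand with the element in capitals, flanked by up to 15 bases before RefSeq's start and stopped where an exon of the gene begins in GENCODE v29. In HSP90B1 and HYOU1, which held 2 copies each, the copy farther from the start is shown. The 35116 windows belong to 27305 genes, so a gene can have several starts. The first window with the element before its start was used. For CANX, PDIA6, HSP90B1 and CRELD2 that start, and the stretch, lie inside the span of the gene in GENCODE v29.
HSPA5: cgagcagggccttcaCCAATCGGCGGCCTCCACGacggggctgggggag
XBP1: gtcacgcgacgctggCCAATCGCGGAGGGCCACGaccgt
HSP90B1: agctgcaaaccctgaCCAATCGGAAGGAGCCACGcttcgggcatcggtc
CANX: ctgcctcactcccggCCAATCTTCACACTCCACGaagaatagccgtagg
PDIA6: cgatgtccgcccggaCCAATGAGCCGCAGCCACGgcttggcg
CALR: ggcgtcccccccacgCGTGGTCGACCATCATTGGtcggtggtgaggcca
ERO1B: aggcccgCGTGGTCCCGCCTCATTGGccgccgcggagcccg
CRELD2: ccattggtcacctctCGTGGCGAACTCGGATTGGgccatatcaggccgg
HYOU1: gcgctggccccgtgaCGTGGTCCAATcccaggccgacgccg
SDF2L1: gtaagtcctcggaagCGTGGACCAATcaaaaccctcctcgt
In CALR, ERO1B, CRELD2, HYOU1 and SDF2L1 the element reads on the opposite strand. The stretches lie at chr9:125241376-125241424 for HSPA5 (minus strand), 66 to 48 bases before the start, and at chr22:28800598-28800636 for XBP1 (minus strand), 52 to 34 bases before it. The others on the plus strand are chr12:103930201-103930249 (HSP90B1), chr5:179698763-179698811 (CANX), chr19:12938369-12938417 (CALR), chr22:49918539-49918587 (CRELD2) and chr22:21642099-21642139 (SDF2L1), and on the minus strand chr2:10812845-10812886 (PDIA6) and chr11:119057365-119057405 (HYOU1). The stretch of ERO1B lies farthest out, at chr1:236282168-236282208 (minus strand), 243 to 225 bases before the start.

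HERPUD1, whose change at 7 h was close to that of ERN1 and above those of the other members, is shown in a longer stretch of 156 bases at chr16:56931892-56932047 (plus strand). Its capitals mark, in order, an amino acid response element (CARE, searched as TGATGNAA on both strands and found here on the opposite strand) 176 to 169 bases before the start, and ERSE-II 117 to 107 bases before it. CARE lay in 3.62% of all windows and, among the members, in that of HERPUD1 alone.
HERPUD1: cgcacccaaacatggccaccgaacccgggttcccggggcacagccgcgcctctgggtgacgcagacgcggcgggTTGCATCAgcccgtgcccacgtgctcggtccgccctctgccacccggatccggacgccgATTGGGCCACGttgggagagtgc
A match of letters describes the sequence and was not tested as a binding site.

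The libraries held 27731776 to 45811965 reads in the listed genes, and no member was within reach of the counting floor (3 reads, at most 0.129 CPM). Known stress genes separated treated from regular cells: HMOX1, a heme oxygenase gene induced by oxidants, averaged 10.3 CPM in regular culture and 21074 CPM in treated cells at 7 h. DDIT3, which encodes the stress factor CHOP, averaged 47.3 and 405 CPM at 1 h and 29.9 and 605 CPM at 7 h, regular culture first. Of the 8 glioma and mesenchymal markers listed, 7 were in the table, and VIM, CD44, NES and TNC were at a mean of at least 871 CPM in every group. Their sum was 9964 to 10102 CPM in regular and 8259 to 8409 CPM in treated libraries at 7 h, and 6 of the 7 were lower. The defining astrocyte marker GFAP did not pass 1.15 CPM in any group mean. Summed neuron markers (4 of 4 in the table) reached 115 to 117 CPM without and 294 to 297 CPM with treatment at 7 h, and all 4 passed the test. Astrocyte markers (2 in the table) summed to 94.1 to 94.5 and 177 to 186 CPM, oligodendrocyte markers (4) to 101 to 104 and 202 to 203 CPM, and immune, endothelial and epithelial markers (3) to 20.7 to 22.9 and 38.2 to 38.8 CPM at 7 h, regular culture first, and each of these genes was higher. At 1 h regular culture held 181 to 187 CPM of neuron, 236 to 237 CPM of astrocyte and 203 to 227 CPM of oligodendrocyte markers. PTPRC, PECAM1 and EPCAM were not analysed here. The part of these shifts in the results was not tested.

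After 7 h of treatment HERPUD1, ERN1, XBP1, HSPA5 and ERO1B were raised and SPCS3 and EDEM3 lowered. Of the 40 members, 24 were higher and 9 lower in treated than in regular cells at 7 h, and 7 did not pass (limma, Benjamini-Hochberg adjusted p under 0.05 over 13028 genes). Over all genes tested, 40.5% were higher and 41.1% lower in that comparison, so the share of members called at all was near that of all genes. The members' median log2 fold change was 0.42, against -0.01 over all genes. Among the 24 higher members, 5 were at least 2-fold higher: HERPUD1, ERN1, XBP1, HSPA5 and ERO1B. Only SPCS3 was at least 2-fold lower. Over all 13028 genes tested, 1381 passed at least 2-fold higher and 1494 passed at least 2-fold lower. By role, the members higher and lower at 7 h numbered 2 and 1 of 4 sensors, 13 and 1 of 14 chaperones and oxidoreductases, 4 and 4 of 12 translocation genes, and 5 and 3 of 10 degradation genes.

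The split between higher and lower rested in part on how libraries were scaled. It was 24 to 9 on the deposited scale, 19 to 15 after quantile normalization, and 20 to 16 after scaling to the total reads of the listed genes. All genes moved with it: 39.1% were higher and 42% lower after quantile normalization, and 24.1% and 58.2% after total scaling. The last scaling alone shifted the median change of all genes at 7 h by -0.32. The 5 members that were at least 2-fold higher stayed higher and past the test under both, and so did the falls of SPCS3, EDEM3, SSR3 and WFS1. Under quantile normalization HSPA5 rose by 1.21 on the log2 scale in place of 2.20. The rises of the other chaperones were all below 0.7 on the log2 scale, and some of them turned direction, as given with each below.

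**Figure D1:**
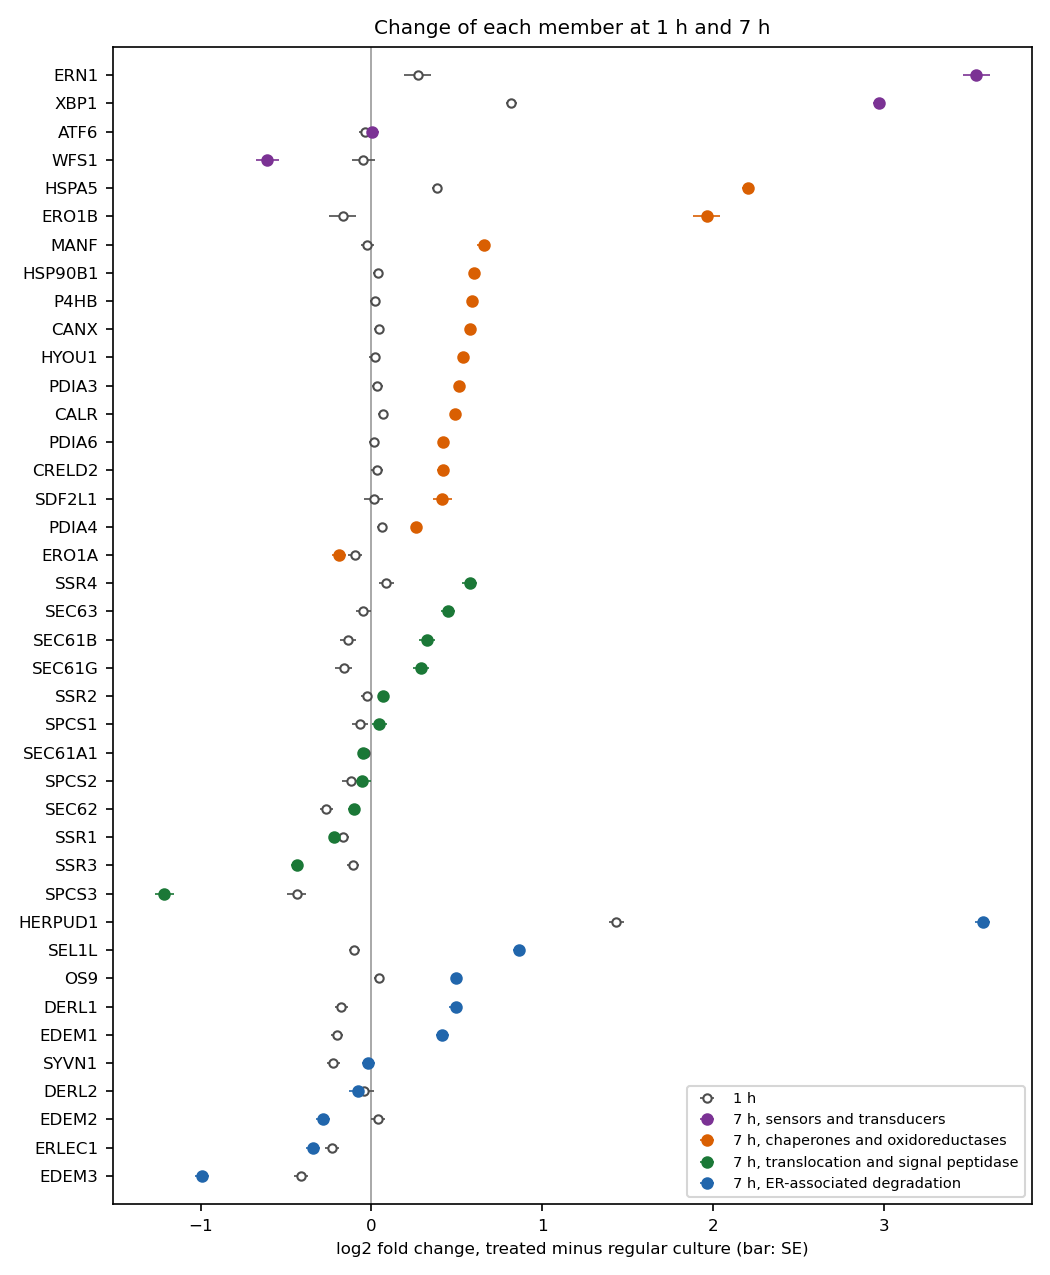
Log2 fold change (x axis) of each of the 40 members (y axis), treated minus regular culture, at 1 h (open points) and 7 h (filled points, coloured by role); bars are standard errors from limma with 2 libraries per group. HERPUD1, ERN1, XBP1, HSPA5 and ERO1B stand to the right at 7 h and SPCS3 and EDEM3 to the left; at 7 h HSP90B1, CALR, PDIA4, P4HB, ATF6, SSR2 and SPCS1 turn below 0 under quantile normalization, and ATF6, PDIA4, SEC61G, SSR2 and SPCS1 under scaling to total reads.

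At 1 h 4 members were higher (HERPUD1, XBP1, HSPA5 and ERN1) and 12 were lower, while 24 did not pass; over all genes 17.7% were higher and 20.7% lower. The members' median was -0.03, against 0.01 over all genes. The split was 4 to 12 on the deposited scale but 13 to 8 after quantile normalization and 16 to 8 after scaling to total reads, where 23.7% and 17.3%, and then 30.2% and 14%, of all genes were higher and lower. The 4 risers passed under every scaling, and the 8 members lower after total scaling were SPCS3, EDEM3, SEC62, SYVN1, ERLEC1, EDEM1, DERL1 and SSR1. Without library A of regular culture at 1 h the count of lower members was 8 rather than 12, as the small falls of SEC61B, SEC61G, SSR3 and SEL1L at 1 h lost their calls. Those of SEC61B, SEC61G and SSR3 were also lost without library A of the treated cells at 1 h, and that of SEL1L without their library B.

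The change at 7 h differed from that at 1 h for 31 members, by the test of the difference between the contrasts: it was higher for 26 and lower for 5, against 36.7% and 37% of all genes. This split was 17 to 16 after quantile normalization and 14 to 17 after scaling to total reads, against 34.2% and 38.6%, and then 19.3% and 58.2%, of all genes. Of the 40 members, 15 that did not pass at 1 h were higher at 7 h, 4 were higher at both times, 6 were lower at both times, and 5 were lower at 1 h and higher at 7 h (SEC61B, SEC61G, EDEM1, SEL1L and DERL1). Over all genes these classes held, in the same order, 24.6%, 8.9%, 11.2% and 7.08%. The 6 members that passed at neither time were ATF6, SEC61A1, SSR2, SPCS1, SPCS2 and DERL2 (13.5% of all genes).

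Regular culture itself was not constant between 1 h and 7 h. From 1 h to 7 h in regular culture 9 members were higher and 16 lower, against 30.7% and 30.8% of all genes; without library B of regular culture at 1 h, 5 were higher. Of the 24 members higher in treated cells at 7 h, 14 were lower in the later regular libraries than in the earlier ones. That joint count was not taken over all genes, so it is not shown to be particular to the members. The contrasts share the regular libraries, so the levels were also compared across all of them. Both treated libraries at 7 h lay above all 4 regular libraries for 24 members, 23 of them among the 24 higher members, where 34.3% of all genes did so. The exception was SDF2L1, and SSR2, which did not pass, was the other member above all 4. Below all 4 lay 7 members, WFS1, SEC62, SSR1, SPCS3, EDEM2, EDEM3 and ERLEC1, where 37.5% of all genes did so.

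Among the 4 sensors and transducers, the mRNA levels of ERN1 and XBP1 changed most, and the activity of the branches was not measured. ERN1 (chr17:64039142-64130819, minus strand), which encodes the kinase and RNase IRE1, held 9.79 and 9.71 CPM in the control libraries of 1 h and 11.3 and 12.3 CPM in the treated libraries of that time, then 6.64 and 7.79 CPM in controls and 82.6 and 86.0 CPM in treated libraries after 7 h. The treated libraries at 7 h stood far above the other 6, which lay between 6.64 and 12.3 CPM. ERN1 rose by 0.27 ± 0.08 (log2, SE) at 1 h and by 3.54 ± 0.08, or 11.6-fold, at 7 h (limma adjusted p = 0.0098 and 1.05e-18). The call at 1 h was lost without library B of the treated cells (0.21, adjusted p = 0.11).

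XBP1 (chr22:28794555-28800597, minus strand), whose mRNA is cut by IRE1, measured 120.7 and 119.8 CPM (regular) against 208.5 and 216.3 CPM (treated) after 1 h, and 71.3 and 69.3 CPM (regular) against 543 and 561 CPM (treated) after 7 h. The groups did not overlap at either time. XBP1 rose by 0.82 ± 0.03 at 1 h and by 2.97 ± 0.03, or 7.85-fold, at 7 h (log2, SE; limma adjusted p = 1.6e-13 and 3.6e-23). Against regular culture at 1 h rather than 7 h, the mean in treated cells at 7 h was 4.59 times as high. Gene totals do not tell the cut from the uncut form of the mRNA.

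ATF6, the sensor that is itself released as a transcription factor, stayed between 112.7 and 127.6 CPM in all 8 libraries. Its log2 change was -0.03 ± 0.04 at 1 h and 0.01 ± 0.04 at 7 h and passed at neither. The 2 other scalings put it below 0 at 7 h (-0.09 and -0.31), past the test in each. WFS1, an ER membrane glycoprotein gene often induced with this response, was at 21.8 and 19.9 CPM in controls after 7 h and at 13.7 and 13.6 CPM in the treated libraries. After 1 h the controls had 21.3 and 20.97 CPM and the treated libraries 19.7 and 21.3 CPM. It fell by 0.61 ± 0.07 on the log2 scale at 7 h (limma adjusted p = 8.9e-08), with no call at 1 h (-0.05).

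**Figure D2:**
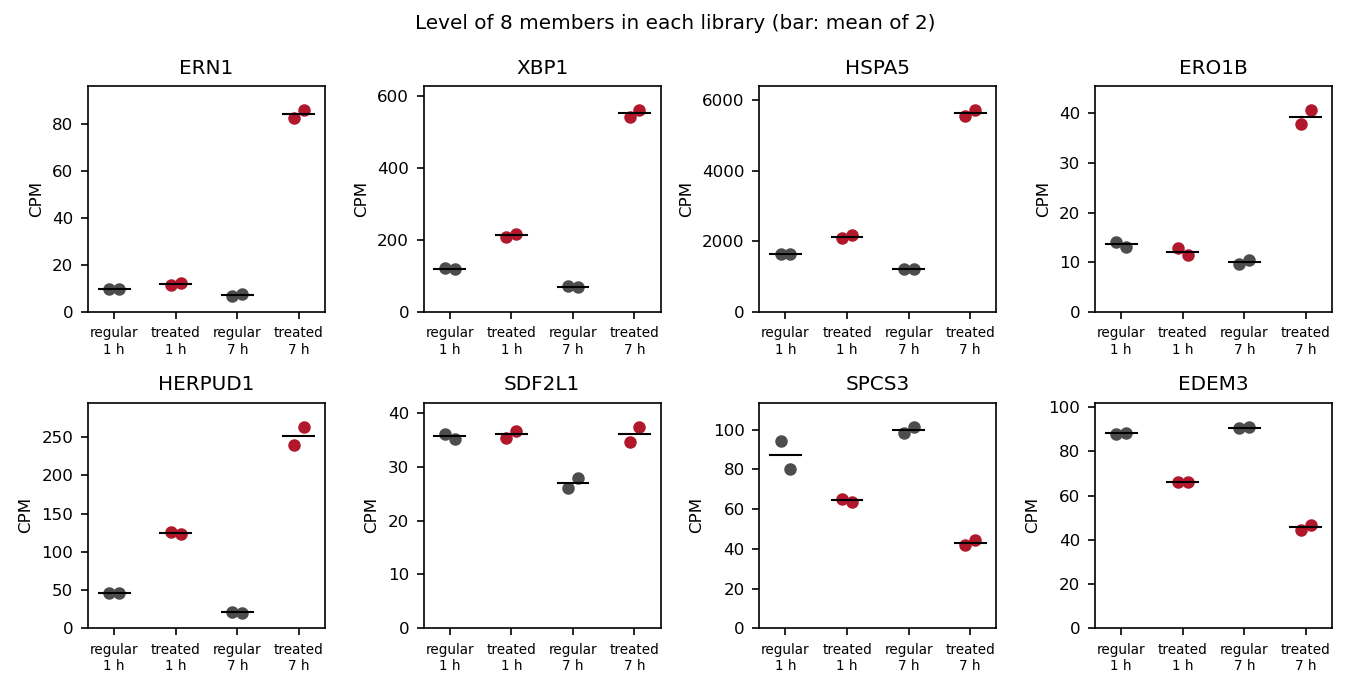
CPM (y axis, from 0) of 8 members in each library by group (x axis); grey points are regular culture, red points treated cells, and the bar is the mean of the 2 libraries. ERN1, XBP1, HSPA5, ERO1B and HERPUD1 are highest in both treated libraries at 7 h, SPCS3 and EDEM3 are lowest there, and SDF2L1 is low only in regular culture at 7 h.

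Among the chaperones, HSPA5 separated from the rest. HSPA5 (chr9:125234853-125241330, minus strand), which encodes BiP, the main Hsp70 of the ER lumen and the partner that holds the sensors inactive, stood at 1628 and 1630.4 CPM in the 2 controls and 2081 and 2173 CPM in the 2 treated libraries after 1 h, and by 7 h at 1224 and 1218 CPM without treatment and 5537 and 5710.3 CPM with it. All 4 treated libraries were above all 4 regular ones. HSPA5 rose by 0.38 ± 0.03 at 1 h and by 2.20 ± 0.03, or 4.61-fold, at 7 h (log2, SE; limma adjusted p = 3.3e-09 and 5.7e-22). On the deposited scale it was the only member of its role that passed at 1 h.

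ERO1B (chr1:236215555-236281985, minus strand), an oxidase that supplies disulfides to the isomerases, held 14.2 and 13.1 CPM in the control libraries of 1 h and 12.9 and 11.4 CPM in the treated libraries of that time, then 9.60 and 10.4 CPM in controls and 37.8 and 40.6 CPM in treated libraries after 7 h. It rose by 1.96 ± 0.08 on the log2 scale at 7 h (limma adjusted p = 1.3e-14) after a change of -0.17 at 1 h that did not pass. Its paralog ERO1A measured 86.2 and 80.7 CPM (regular) against 78.5 and 77.8 CPM (treated) after 1 h, and 99.5 and 103 CPM (regular) against 87.0 and 90.7 CPM (treated) after 7 h. ERO1A fell by 0.19 at 7 h (adjusted p = 3.6e-04), the only lower member of the role. The paralogs thus carried changes of opposite sign at 7 h, while the treated level of ERO1A lay within the range of the 4 regular libraries. In regular culture alone ERO1A was 0.28 higher on the log2 scale after 7 h than after 1 h.

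The other lumenal chaperones and isomerases formed a band of smaller rises at 7 h, none with a call at 1 h on the deposited scale. MANF, a small secreted ER stress protein, stood at 156.9 and 159 CPM in the 2 controls and 151.1 and 159.9 CPM in the 2 treated libraries after 1 h, and by 7 h at 133.6 and 129.4 CPM without treatment and 213.8 and 201.2 CPM with it. It rose by 0.66 ± 0.04 on the log2 scale at 7 h (limma adjusted p = 4.3e-12), the largest rise of this band. Next came HSP90B1, the lumenal Hsp90 called GRP94, at 0.60, and the disulfide isomerase P4HB, also a subunit of prolyl hydroxylase, at 0.59. The lectin chaperones of the calnexin cycle rose by 0.58 (CANX) and 0.49 (CALR), and PDIA3, the isomerase that works with them, by 0.51. HYOU1, a large Hsp70 relative that exchanges the nucleotide of BiP, rose by 0.54. PDIA6 and CRELD2 both rose by 0.42, SDF2L1 by 0.41 and the isomerase PDIA4 by 0.26. At 1 h the log2 changes of these 11 members lay between -0.02 (MANF) and 0.07 (CALR). Under both other scalings HSP90B1, CALR, CANX, PDIA3, PDIA4, HYOU1 and CRELD2 passed as higher at 1 h, by at most 0.16 (CANX after quantile normalization, adjusted p = 7.7e-05), and PDIA6 and P4HB did so under total scaling.

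Of this band, MANF, HYOU1, PDIA3, PDIA6 and CRELD2 kept their direction and their call under both other scalings, at smaller sizes. After quantile and then total scaling MANF was at 0.51 and 0.34, HYOU1 at 0.25 and 0.22, PDIA3 at 0.11 and 0.20, PDIA6 at 0.09 and 0.10, and CRELD2 at 0.33 and 0.10. HSP90B1 was at -0.09 and P4HB at -0.23 on the log2 scale after quantile normalization, each past the test in that direction, and CALR at -0.01. PDIA4 was below 0 under both scalings (-0.12 and -0.06). CANX, at 0.04 after quantile normalization, and SDF2L1, at 0.10 after total scaling, lost their calls. SDF2L1, a partner of the lumenal DnaJ proteins, was at 34.6 and 37.4 CPM in treated cells at 7 h, against 26.1 and 27.9 in the controls of that time and 36.1 and 35.1 in the 1 h controls. Its treated level at 7 h overlapped that of regular culture at 1 h, and its regular level was 0.40 lower on the log2 scale at 7 h than at 1 h.

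Per kilobase of exon, the order of abundance in this role changed at its top. In regular culture at 7 h the mean levels were 882 CPM per kilobase for P4HB, 601 for CALR, 560 for HSP90B1 and 312 for HSPA5. In treated cells at 7 h HSPA5 came first with 1439 CPM per kilobase, followed by P4HB with 1326. HSP90B1 and CALR lay close together there, with 849.7 and 844. HSPA5 alone made up 12.0% to 12.1% of the summed CPM of the 14 genes without treatment and 30.0% to 30.9% with it at 7 h. At 1 h its share was 14.98% to 15.05% in regular and 18.2% to 18.5% in treated cells. The summed level of the role was 10123 ± 15.3 CPM in controls and 18462 ± 13.6 CPM in treated libraries of 7 h (SD, n = 2). That was a ratio of 1.82 on the deposited scale, against 1.07 at 1 h. As a share of all reads in the listed genes, the sum at 7 h was 1.06% to 1.07% in controls and 1.55% to 1.56% in treated libraries.

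The translocation genes moved in both directions. Their sum was 1855 ± 6.29 CPM in regular culture and 1821 ± 8.96 in treated cells at 7 h (SD, n = 2), a ratio of 0.982 on the deposited scale. As a share of all reads in the listed genes it was 0.194% to 0.195% and 0.153% to 0.154%. The median change of the 12 was -0.00 at 7 h on the log2 scale, between -1.21 and 0.58. At 1 h none was higher and 6 were lower on the deposited scale, against 17.7% and 20.7% of all genes. SSR4 passed as higher at 1 h under both other scalings. After total scaling the lower genes of this role at 1 h were SPCS3, SEC62 and SSR1.

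The largest fall among all members was that of SPCS3 (chr4:176319964-176332245, plus strand), a subunit of the signal peptidase. SPCS3 held 94.4 and 80.4 CPM in the control libraries of 1 h and 65.1 and 63.7 CPM in the treated libraries of that time, then 98.1 and 101.5 CPM in controls and 41.9 and 44.2 CPM in treated libraries after 7 h. Both treated groups lay below all 4 regular libraries. SPCS3 fell by 0.44 ± 0.06 at 1 h and by 1.21 ± 0.06 at 7 h (log2, SE; limma adjusted p = 3.7e-06 and 1.2e-13). The other subunits in the table, SPCS1 and SPCS2, passed at neither time, with changes of 0.05 and -0.05 at 7 h and of -0.07 and -0.12 at 1 h. Under total scaling both were lower at 7 h (-0.27 and -0.37). SPCS1 shares 60.5% of its exon bases with NEK4 on the opposite strand, and reads of the pair cannot be told apart in these libraries, which do not mark strand.

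The channel and its associated complexes split within themselves. Of the SEC61 channel, the pore subunit SEC61A1 did not pass at either time (-0.03 and -0.05) on the deposited scale but was lower at 7 h after quantile normalization (-0.31, adjusted p = 6.6e-09) and total scaling (-0.37, adjusted p = 4.9e-10), while the small subunits SEC61B and SEC61G rose by 0.33 and 0.29 at 7 h after falls of 0.14 and 0.16 at 1 h on the log2 scale. Under total scaling SEC61G was at -0.03 and SEC61B at 0.01 at 7 h, neither with a call. Of the partners for post-translational import, SEC63, which recruits BiP to the channel, measured 57.6 and 61.8 CPM (regular) against 57.6 and 58.0 CPM (treated) after 1 h, and 63.9 and 64.7 CPM (regular) against 86.0 and 89.6 CPM (treated) after 7 h. SEC63 rose by 0.45 ± 0.04 at 7 h (limma adjusted p = 1.1e-08) after -0.05 at 1 h. SEC62, its partner, had 106.8 and 105.1 CPM (regular) against 89.3 and 87.1 CPM (treated) after 1 h, and 97.3 and 101.4 CPM against 91.7 and 93.5 CPM after 7 h. SEC62 fell by 0.26 at 1 h and by 0.10 at 7 h. The call at 7 h was lost without library B of regular culture (-0.07, adjusted p = 0.19) or library A of the treated cells (-0.09, adjusted p = 0.086).

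The 4 subunits of the translocon-associated protein complex (the SSR genes) did not move as one. SSR4 stood at 99.0 and 97.5 CPM in the 2 controls and 99.7 and 109.3 CPM in the 2 treated libraries after 1 h, and by 7 h at 103.1 and 95.4 CPM without treatment and 147.6 and 148 CPM with it. SSR4 rose by 0.58 ± 0.04 at 7 h (limma adjusted p = 4.0e-10), with 0.09 and no call at 1 h, where it passed under both other scalings (0.17 and 0.16). SSR3 held 148 and 141.7 CPM in the control libraries of 1 h and 132 and 136.8 CPM in the treated libraries of that time, then 195.1 and 190.0 CPM in controls and 142 and 142.2 CPM in treated libraries after 7 h. SSR3 fell by 0.44 ± 0.04 at 7 h (adjusted p = 7.1e-10) and by 0.11 at 1 h. The treated level at 7 h lay within the range of regular culture at 1 h, and regular culture was 0.41 higher at 7 h than at 1 h. SSR1 fell by 0.16 and 0.22 at 1 h and 7 h, and SSR2 passed at neither time (-0.03 and 0.07), though it was lower at 7 h under both other scalings (-0.15 and -0.25).

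**Figure D3:**
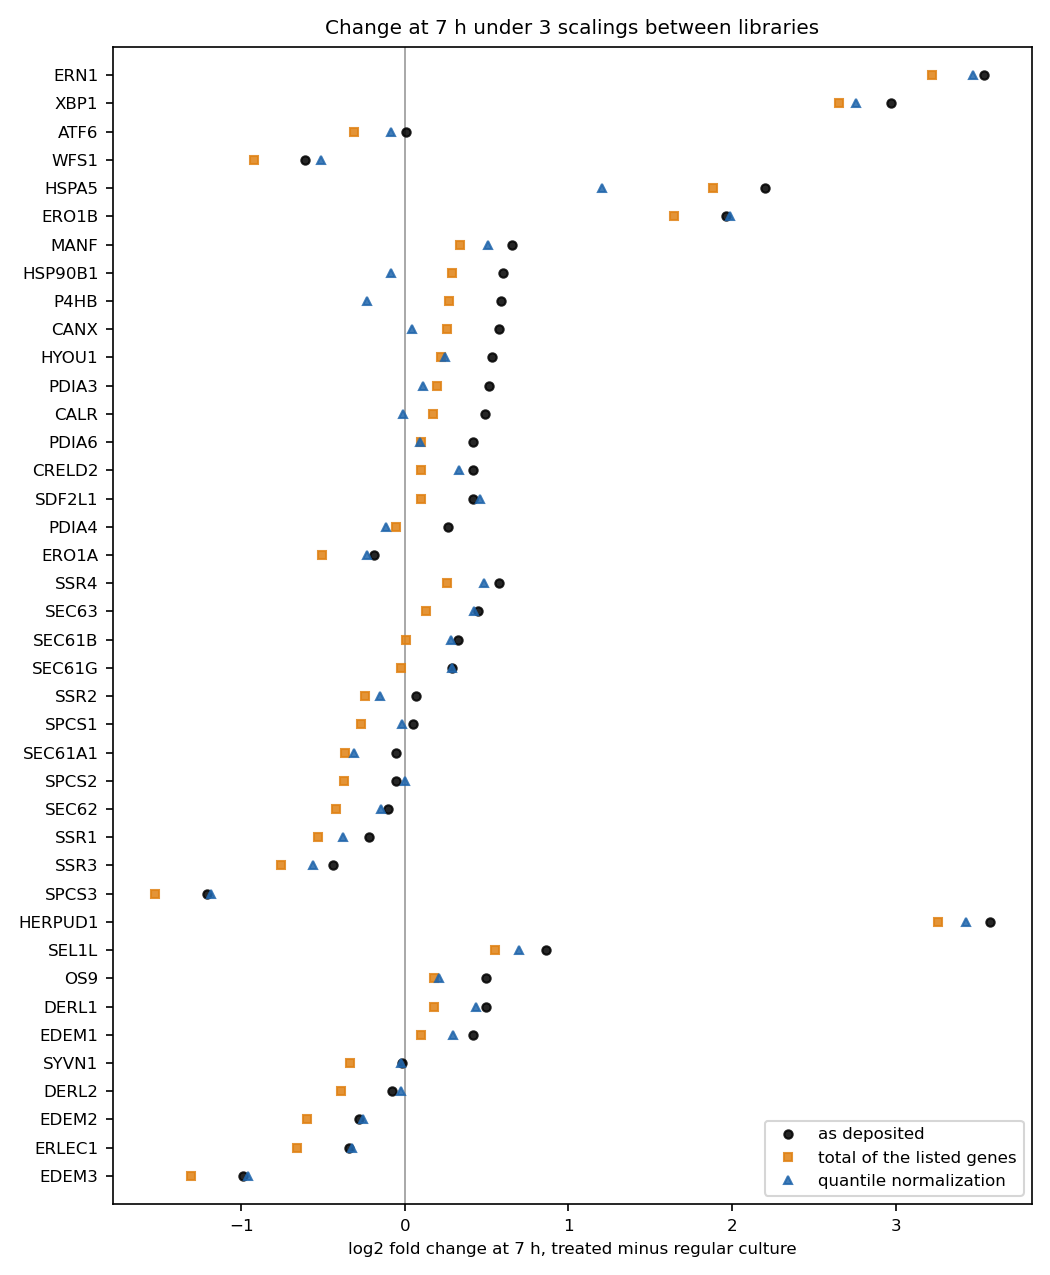
Log2 fold change at 7 h (x axis), treated minus regular culture, for the 40 members (y axis) on the deposited scale (circles), after scaling to the total reads of the listed genes (squares) and after quantile normalization (triangles). HERPUD1, ERN1, XBP1, HSPA5 and ERO1B stay above 1 and SPCS3 below -1 under all 3 scalings; ATF6, PDIA4 and SSR2 turn below 0 under both alternatives, HSP90B1, CALR and P4HB under quantile normalization, SEC61G under total scaling, and SPCS1 under both (-0.02 after quantile normalization).

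Among the degradation genes, HERPUD1 changed most at both times. HERPUD1 (chr16:56932048-56944863, plus strand), a membrane scaffold of the ubiquitin ligase complex, measured 45.7 and 46.7 CPM (regular) against 126 and 124.1 CPM (treated) after 1 h, and 21.4 and 20.7 CPM (regular) against 240 and 263.9 CPM (treated) after 7 h. Regular libraries and treated libraries did not overlap at either time. HERPUD1 rose by 1.43 ± 0.04 at 1 h and by 3.58 ± 0.04 at 7 h (log2, SE; limma adjusted p = 1.7e-15 and 1.6e-22). It also fell the most in regular culture between 1 h and 7 h, by 1.14 on the log2 scale. Against regular culture at 1 h, treated cells at 7 h held 5.45 times as much, and for ERN1 that ratio was 8.65.

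The core of the ligase complex did not follow HERPUD1 as a unit. SEL1L, the adaptor that holds the ligase, stood at 137.6 and 134.7 CPM in the 2 controls and 128.4 and 125.8 CPM in the 2 treated libraries after 1 h, and by 7 h at 126.9 and 126.5 CPM without treatment and 226.5 and 235.3 CPM with it. SEL1L rose by 0.87 ± 0.03 at 7 h (limma adjusted p = 8.8e-15) and was 0.10 lower at 1 h. SYVN1, the ligase itself (HRD1), had 77.7 and 78.1 CPM in the 7 h controls and 78.0 and 75.9 CPM in their treated counterparts. SYVN1 fell by 0.22 at 1 h and did not pass at 7 h (-0.02). Of the derlins, channel components of retrotranslocation, DERL1 fell by 0.17 at 1 h and rose by 0.49 at 7 h, while DERL2 passed at neither time (-0.04 and -0.08). Total scaling put SYVN1 (-0.34) and DERL2 (-0.39) past the test as lower at 7 h.

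The factors that recognise glycans on failed proteins also moved apart. EDEM1, which trims mannose to mark such proteins, fell by 0.20 at 1 h and rose by 0.42 at 7 h on the log2 scale. Its paralog EDEM3 held 88.1 and 88.5 CPM in the control libraries of 1 h and 66.4 and 66.3 CPM in the treated libraries of that time, then 90.4 and 91.2 CPM in controls and 44.6 and 46.8 CPM in treated libraries after 7 h. EDEM3 fell by 0.41 ± 0.04 at 1 h and by 0.99 ± 0.04 at 7 h (limma adjusted p = 7.4e-08 and 1.2e-14). EDEM2, the other paralog, did not pass at 1 h (0.04) and fell by 0.28 at 7 h. The 3 EDEM paralogs therefore held 1 rise and 2 falls at 7 h, and these directions held under both other scalings.

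The lectins that read the trimmed glycans split in the same comparison. OS9 rose by 0.50 at 7 h, with 0.05 and no call at 1 h, where it passed under both other scalings (0.14 and 0.11). ERLEC1 measured 86.3 and 85.3 CPM (regular) against 71.4 and 74.7 CPM (treated) after 1 h, and 78.1 and 79.0 CPM (regular) against 60.6 and 63.3 CPM (treated) after 7 h. ERLEC1 fell by 0.23 at 1 h and by 0.34 ± 0.04 at 7 h (limma adjusted p = 2.2e-07). OS9 shares 24.4% of its exon bases with an antisense gene, whose reads cannot be told apart from its own. The same limit applies to PDIA6 (29.7%, with ATP6V1C2), P4HB (20.3%), PDIA3 (16.8%, with ELL3) and SSR4 (16.2%, with IDH3G); PDIA3 and SSR4 also have a pseudogene copy (PDIA3P1 and SSR4P1) with a row of its own in the table.

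Members with the promoter elements shown above were set beside the others at 7 h. All 11 members with ERSE or ERSE-II were higher at 7 h, with a median log2 change of 0.58 and a range of 0.41 to 3.58. Of the 26 members whose window held neither, 11 were higher and 9 lower, with a median of -0.01. Over all genes 40.5% were higher and 41.1% lower at 7 h. After quantile normalization 8 of the 11 were higher and 1 lower (HSP90B1), against 9 and 14 of the 26, and after total scaling 10 and none, against 8 and 15. All genes then stood at 39.1% higher and 42% lower after quantile normalization, and at 24.1% and 58.2% after total scaling. The elements and the roles overlap: 9 of the 11 are chaperones or oxidoreductases. Within that role the 9 with an element had a median of 0.54 and the 4 without it a median of 0.42. ERN1 and SEL1L were among the most raised members and held neither element in this window. Outside the members, 20 tested genes held ERSE or ERSE-II, of which 11 were higher and 5 lower at 7 h, with a median of 0.43. No gene from the lists of other pathway genes further on was among these 20. These counts are descriptions of a fixed window and were given no test.

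**Figure D4:**
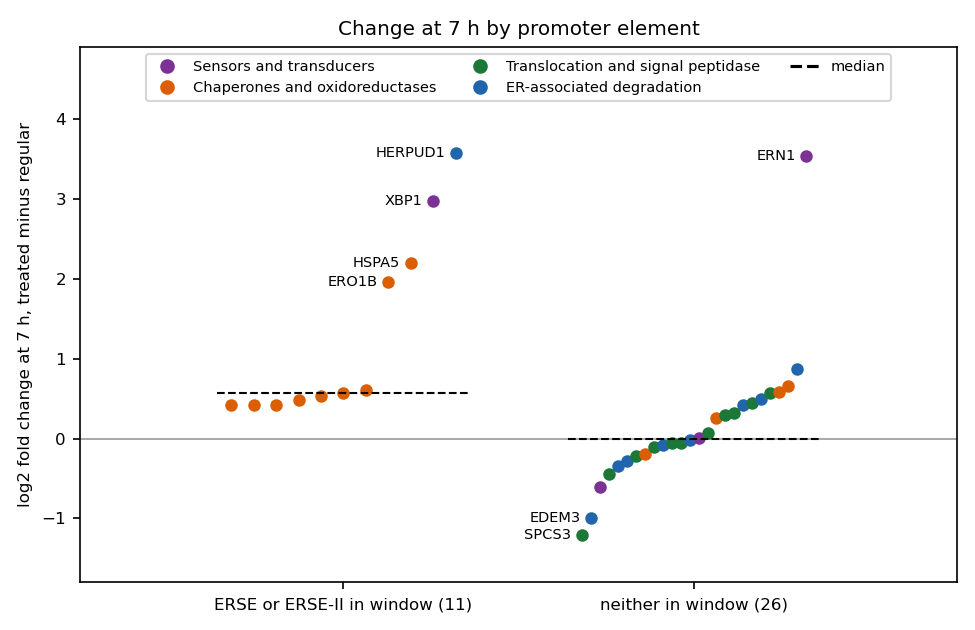
Log2 fold change at 7 h (y axis), treated minus regular culture, for 11 members with ERSE or ERSE-II in the promoter window and 26 members with neither (x axis); each point is a member, coloured by role, and dashed lines are medians (0.58 and -0.01). All 11 points on the left lie above 0 on the deposited scale, though HSP90B1 and CALR turn below 0 after quantile normalization; points on the right fall on both sides.

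A further 3 motifs were searched on both strands. The unfolded protein response element TGACGTGG lay in 0.729% of all windows and in those of 4 members, HYOU1, SEC62, SSR3 and SSR4, which changed in both directions. The antioxidant response element TGACNNNGC lay in windows of 16.1% of all genes and of 9 of 37 members (24.3%). These were ERN1, CALR, CANX, SDF2L1, CRELD2, SSR3, SSR4, SPCS2 and SEL1L. At 7 h 7 of them were higher, SSR3 was lower and SPCS2 did not pass. Outside the members, 2015 tested genes held this element, of which 884 were higher and 772 lower at 7 h, with a median of 0.04. The heat shock element GAANNTTCNNGAA lay in 0.490% of all windows and in none of the 37. Of the other pathway genes 3 held it: SERPINH1, the collagen chaperone HSP47, with a log2 change of 3.82 at 7 h, and PRKCSH and TMX2, with 0.42 and 0.32. The element of SERPINH1 is printed here in capitals with 8 bases on each side, at chr11:75562169-75562197 (plus strand), 76 to 64 bases before RefSeq's start and within a first exon in GENCODE v29.
SERPINH1: ttccaactTTCCAGAAGTTTCtcgggacg

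The rest of the pathway was read from 8 lists holding 150 named genes, of which 140 were tested. At 7 h 80 were higher and 40 lower, with a median log2 change of 0.17, and at 1 h 12 were higher and 23 lower, with a median of -0.01. Over all genes 40.5% were higher and 41.1% lower at 7 h, and 17.7% and 20.7% at 1 h. The 7 h split was 71 to 46 after quantile normalization and turned to 38 to 74 after scaling to total reads, with a median of -0.15; all genes shifted too, with 24.1% higher and 58.2% lower and a median of -0.32. The counts of the lists below hold for the deposited scale and are to be read against its 40.5% and 41.1% of all genes at 7 h. Among other lumenal chaperones and their partners, 13 of 19 were higher and 3 lower at 7 h. SERPINH1 rose by 3.82 on the log2 scale, from a mean of 513 to one of 7238 CPM. DNAJB9, a DnaJ partner of BiP that restrains IRE1, rose by 2.87, from 8.43 to 62.2 CPM, and had risen by 0.65 at 1 h. DNAJB11, another lumenal DnaJ protein, rose by 0.99. CNPY4 fell by 1.56, SDF2, the paralog of SDF2L1, by 0.74, and FKBP14 by 0.19.

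Among other sensors and transducers, 3 of 10 were higher and 6 lower at 7 h. EIF2AK3, which encodes PERK, fell by 0.28 at 1 h and rose by 1.60 at 7 h, from a mean of 19.9 to one of 60.4 CPM. RTCB, the ligase that joins cut XBP1 mRNA, rose by 0.15, and TRAF2 by 0.13, but both were lower under total scaling (-0.17 and -0.19). BOK fell by 0.84, the membrane-bound factor NFE2L1 by 0.77 and MBTPS2, a protease that releases ATF6, by 0.58.

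The other oxidoreductases divided evenly, with 9 of 19 higher and 9 lower at 7 h. ERP29 rose by 0.53, VKORC1 by 0.47 and ERP44 by 0.45, while VKORC1L1, the paralog of VKORC1, fell by 1.48, TXNDC15 by 0.69 and PDIA5 by 0.55. In the calnexin cycle and glycan trimming list 7 of 13 were higher and 5 lower. MOGS, the glucosidase that removes the first glucose from new glycans, fell by 2.06, from a mean of 78.3 to one of 18.7 CPM. MLEC fell by 0.72 and MAN1A2 by 0.56, and PRKCSH rose by 0.42, LMAN2 by 0.38 and LMAN1 by 0.26; under total scaling the calls of LMAN2 (0.06) and LMAN1 (-0.05) were lost. CLGN and MAN1A1 stayed below 5 CPM in every group. Of the 12 oligosaccharyltransferase genes, which transfer the glycan to new proteins, 7 were higher and none lower at 7 h, led by DDOST (0.37), RPN1 (0.34) and RPN2 (0.30); none passed at 1 h. Under total scaling none of the 12 was higher and 8 were lower, and after quantile normalization RPN2 was at -0.12.

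In the list of signal recognition, membrane insertion and other translocation genes, 22 of 31 were higher and 5 lower at 7 h, against 9 and 14 under total scaling. EMC3 and CAMLG, of insertion machineries, both rose by 0.82, and SRP14, of the signal recognition particle, by 0.76. TRAM2 fell by 1.02, EMC8 by 0.51 and EMC9 by 0.40. Of 28 other degradation genes 15 were higher and 10 lower. SELENOK rose by 1.48, UBXN8 by 1.34 and the ligase MARCHF6 by 1.24. HERPUD2, the paralog of HERPUD1, fell by 1.27, ERLIN1 by 1.20 and the ligase RNF145 by 1.16. Of 8 ER-phagy receptors, which deliver ER to lysosomes, 4 were higher (CCPG1 by 0.90, RTN3 by 0.42 and RETREG1 by 0.35 among them, the last without a call under total scaling) and 2 lower (ATL3 by 1.02 and RETREG3 by 0.70).

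In all, the 40 members summed to 13962 ± 57.7 CPM in regular culture and 14691 ± 283 in treated cells at 1 h, a ratio of 1.05. At 7 h they summed to 13273 ± 7.69 and 22611 ± 43.8 CPM (SD, n = 2), a ratio of 1.70. Free of the deposited scaling, their share of all reads in the listed genes was 1.39% to 1.40% in regular culture and 1.89% to 1.92% in treated cells at 7 h. At 7 h the sensors summed to 224 ± 4.99 CPM in regular culture and 776 ± 13.2 CPM in treated cells, and the degradation genes to 1072 ± 3.67 and 1553 ± 25.96 CPM. As shares of the listed reads the sensors held 0.0232% to 0.0238% and 0.0642% to 0.0664%. The degradation genes held 0.112% to 0.113% and 0.129% to 0.133%. With 2 libraries against 2, an exact permutation test of a sum cannot go below a two-sided p of 1 in 3, so no test of the sums is given.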

How the data were processed

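RNA was measured in 8 libraries made with SMART-Seq mRNA HT and Nextera XT kits, per the labels' protocols. Reads were aligned with HISAT2 to GRCh38 and edgeR was used, as the submitters' processing notes list; for versions, the counting step and the filter the sources used here give nothing. The authors deposited log2 CPM with a prior (0.0522 CPM, 2 reads in a mean library) for 13036 genes. Whole reads could be recovered to within 0.1 read for 100% of the values. The ratio of the library size used for CPM to the listed reads was 1.04 to 1.05 for controls, 1.09 for treated cells of 1 h, and 0.838 and 0.846 for those of 7 h. Printed CPM have the prior removed; fold changes keep it. Column headings carry no replicate number, so libraries are called A and B without order.

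The 13028 genes reaching 1 CPM in 2 or more libraries were fitted on the log2 values with limma 3.58.1 in R 4.3.3 (a trended prior variance over group means of all 8 libraries), with Benjamini-Hochberg adjustment over all of them at 0.05. A planned pseudocount of 0.5 CPM was not needed, since the values were already logged. The fit was also run on simulated reads in which a small set of genes was raised at 7 h. Those reads held no shift of scaling between libraries, so that run cannot speak to the choice between scalings. The floor of 3 reads covers counting error only. The members and gene lists were chosen with earlier results of these data known. The text names every member; from each other list it names up to 3 genes that rose and 3 that fell at 7 h, by size, leaving unranked those under 5 CPM in every group. Alternatives were quantile and total scaling, voom, other filters, a pseudocount of 2 CPM, a 1.5-fold minimum change (treat), and leaving out each library. Gene positions and exon lengths are from GENCODE v29, and promoters from RefSeq on GRCh38.p14. Python 3.11.15 and pandas 2.3.3 were used.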

Additional observations from a re-analysis of the deposited data

Results flagged for a closer look

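The treated-against-regular change differed between 7 h and 1 h for 31 of the 40 members, by a test of the difference itself (limma, Benjamini-Hochberg adjusted p under 0.05 over all genes tested). The difference was higher for 26 and lower for 5, against 36.7% and 37% of all genes, so the share of members called was near that of all genes. This held for the deposited scale. The split was 17 to 16 after quantile normalization, against 34.2% and 38.6% of all genes, and 14 to 17 after total scaling, against 19.3% and 58.2%. The values here are the change at 7 h minus the change at 1 h on the log2 scale. Of the sensors and transducers, the differences were ERN1 (3.27), XBP1 (2.15), WFS1 (-0.56). Of the chaperones and oxidoreductases they were ERO1B (2.13), HSPA5 (1.82), MANF (0.68), P4HB (0.57), HSP90B1 (0.56), CANX (0.53), HYOU1 (0.52), PDIA3 (0.48), CALR (0.42), PDIA6 (0.40), SDF2L1 (0.40), CRELD2 (0.38), PDIA4 (0.20), and ERO1A alone did not pass. Of the translocation genes they were SEC63 (0.49), SSR4 (0.49), SEC61B (0.46), SEC61G (0.45), SEC62 (0.16), SSR3 (-0.33), SPCS3 (-0.78). Of the degradation genes they were HERPUD1 (2.14), SEL1L (0.96), DERL1 (0.67), EDEM1 (0.62), OS9 (0.45), SYVN1 (0.21), EDEM2 (-0.32), EDEM3 (-0.58). In the 5 with a negative difference, WFS1, SSR3, SPCS3, EDEM2 and EDEM3, the change at 7 h was lower than that at 1 h; in SSR3 regular culture was higher at 7 h, and the treated mean was not lower. The sign of the difference depended on scaling for HSP90B1, CALR, CANX, PDIA4, P4HB, CRELD2, SEC62 and SYVN1, and the cause was not tested. Groups of 2 libraries are too small for a check of single outlying libraries.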

How the results depend on the processing

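No paired analysis was possible because the columns carry no replicate numbers. Raising the filter to 5 CPM, dropping it, and adding a pseudocount of 2 CPM changed no call of any member in the 4 comparisons, and voom weights on recovered reads added 3 calls and lost none. Scaling mattered more. At 1 h the members higher and lower numbered 4 and 12 on the deposited scale, 13 and 8 after quantile normalization, and 16 and 8 after scaling to total reads. At 7 h they numbered 24 and 9, 19 and 15, and 20 and 16 in that order, and for the difference between times 26 and 5, 17 and 16, and 14 and 17. The shares of all genes under each scaling are given with these counts in the Results. Against a minimum change of 1.5-fold (treat), 2 members were higher and 0 lower at 1 h, 6 higher and 2 lower at 7 h, 6 and 1 for the difference, and 0 and 2 for regular culture at 7 h against 1 h; at an adjusted p under 0.05 with no minimum those last were 9 and 16. The 0 lower members at 1 h under treat stand beside 12 under the plain limma test. Over all 13028 genes the treat counts, higher and lower, were 140 and 323 at 1 h, and 1896 and 2175 at 7 h. They were 1764 and 1882 for the difference, and 253 and 711 for regular culture. Leaving out each library in turn gave 3 to 6 higher and 8 to 15 lower members at 1 h, 24 to 25 and 8 to 9 at 7 h, 25 to 27 and 5 to 6 for the difference, and 5 to 9 and 11 to 16 for regular culture.

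Changes whose sign turned at 7 h, with a call on either scale, were ATF6 -0.087, HSP90B1 -0.085, CALR -0.011, PDIA4 -0.12, P4HB -0.23, SSR2 -0.15 after quantile normalization, and ATF6 -0.31, PDIA4 -0.055, SEC61G -0.026, SSR2 -0.25, SPCS1 -0.27 after total scaling. With no call on either scale, SPCS1 (-0.016) and SPCS2 also turned after quantile normalization. For the difference between times, by the same rule, they were ATF6 -0.15, HSP90B1 -0.18, CALR -0.16, CANX -0.11, PDIA4 -0.24, P4HB -0.21, SSR2 -0.22 after quantile normalization, and ATF6 -0.34, PDIA4 -0.18, CRELD2 -0.00112, SEC62 -0.22, SSR2 -0.29, SPCS1 -0.27, SPCS2 -0.32, SYVN1 -0.18 after total scaling. Total scaling also moved the summed CPM of each role, in the order regular 1 h, treated 1 h, regular 7 h, treated 7 h: to 280.3, 393, 235 and 653 for the sensors, 11273, 12619.9, 10618 and 15546 for the chaperones and oxidoreductases, 1773, 1747, 1945 and 1533 for the translocation genes, and 1182, 1248, 1124 and 1308 for the degradation genes. The choice between scalings was not tested. Depth was not limiting for any member, and 2 libraries per group limit the estimate of spread.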

Other observations

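Chaperones outside the ER gave a setting for these changes. All 25 tested cytosolic heat shock genes were higher in treated cells at 7 h on the deposited scale, with a median log2 change of 3.18. At 1 h 20 of the 25 were higher, with a median of 0.63. Over all genes 40.5% were higher at 7 h and 17.7% at 1 h. Under total scaling 24 of the 25 were higher at 7 h, against 24.1% of all genes. HSPA1A, HSPA1B and HSPA1L were not analysed here. HSPA6, an Hsp70 gene that is nearly silent without stress, rose by 12.73 on the log2 scale at 7 h, from a mean of 1.70 to one of 11891 CPM. The Hsp40 gene DNAJB1 rose by 6.30 and the cochaperone gene BAG3 by 6.22 at 7 h. HSPH1, a cytosolic relative of HYOU1, rose by 5.14. Of 12 mitochondrial chaperone and protease genes, 6 were higher and 3 lower at 7 h, where 40.5% and 41.1% of all genes were. The chaperonin pair HSPD1 and HSPE1 rose by 3.44 and 3.51, and HSPA9, the mitochondrial Hsp70, by 2.64, while CLPX fell by 0.39, DNAJC19 by 0.36 and GRPEL1 by 0.18 (-0.11 and no call after quantile normalization). HSPA5, at 2.20, thus rose less than HSPA9 on the log2 scale, though this difference between genes was not tested.

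The COPII coat, which carries folded cargo out of the ER, moved in both directions. Of its 14 tested genes, 8 were higher and 5 lower at 7 h, with a median log2 change of 0.14. Under scaling to total reads 3 were higher and 9 lower. Over all genes 40.5% were higher and 41.1% lower on the deposited scale, and 24.1% and 58.2% under total scaling. The cargo adaptors SEC24A and SEC24D fell by 0.63 and 0.40 at 1 h and rose by 0.53 and 0.77 at 7 h, and SEC13 rose by 0.55. SEC24B fell by 0.71, PREB by 0.58 and SEC16A by 0.35 at 7 h.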
